A study of Homo sapiens with 12 samples.

Results

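The 28 genes described here encode enzymes, regulators and carriers of cholesterol and fatty acid synthesis that are targets or components of the sterol regulatory element-binding protein (SREBP) system. They are the genes of a list of 34 whose symbols occur in the deposited table, and all 28 passed the low-count filter, among 10459 genes tested in all. LSS, CYP51A1, INSIG1, ACACA, ME1 and THRSP, which are also on the list, were not analysed here. Transcripts were counted from their 3′ ends in HepG2, an established, genetically unmodified (labelled WT) human line derived from a liver cancer, after 96 h in 1 of 4 media with 3 libraries each. These were EMEM (Eagle's minimum essential medium, in which the cells were kept before), Plasmax (modelled on the nutrients of human plasma), Plasmax-TE (Plasmax made without trace elements) and Plasmax-TE+Fe (the same with iron supplied). All held 10% heat-inactivated fetal bovine serum. Cells of every group were plated in EMEM, switched after 24 h and given fresh medium once, at 48 h. Only 1 line was used, and nothing in the labels tells whether the 3 libraries stem from different cultures, so the p-values rest on a spread that may be technical.

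In hepatocytes as in other cells, SREBP precursors sit in the endoplasmic reticulum bound to the escort protein SCAP. When membrane cholesterol is low, SCAP carries them to the Golgi, where proteases release a transcription factor that enters the nucleus and turns on the genes for cholesterol synthesis and lipoprotein uptake. When sterols are plentiful, INSIG proteins hold SCAP back. SREBF2 mainly serves the cholesterol genes and SREBF1 the fatty acid genes, the latter together with MLXIPL, the carbohydrate-responsive factor ChREBP. Several steps between squalene and cholesterol are catalysed by enzymes that hold iron, among them MSMO1 and SC5D.

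Of the 28 genes, 23 matched a RefSeq promoter (GRCh38.p14), and the 250 bases before the annotated start were searched on both strands. ACAT2, FASN, FDFT1, PNPLA3 and SQLE had no match. The stretches below run to the base before the start. They are examples from genes that moved together across the media, with PMVK, which did not fall with them from EMEM to Plasmax. Other genes of the list broke this contrast, as given after the stretches. Capitals mark CCAAT, the box bound by the SREBP partner NF-Y, on either strand (ATTGG when reversed), and in SREBF2 also TCACNCCAC, the core of a sterol regulatory element.
SREBF2 (chr22:41832955-41833104, plus strand): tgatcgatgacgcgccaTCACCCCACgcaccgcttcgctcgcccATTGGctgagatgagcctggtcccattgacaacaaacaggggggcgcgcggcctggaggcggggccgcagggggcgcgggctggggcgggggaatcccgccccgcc
MSMO1 (chr4:165327469-165327668, plus strand): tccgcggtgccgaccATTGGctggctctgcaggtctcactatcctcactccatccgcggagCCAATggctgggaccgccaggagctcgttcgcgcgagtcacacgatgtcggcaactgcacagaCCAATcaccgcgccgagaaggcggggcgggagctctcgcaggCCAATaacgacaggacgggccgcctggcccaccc
HMGCS1 (chr5:43313413-43313592, minus strand): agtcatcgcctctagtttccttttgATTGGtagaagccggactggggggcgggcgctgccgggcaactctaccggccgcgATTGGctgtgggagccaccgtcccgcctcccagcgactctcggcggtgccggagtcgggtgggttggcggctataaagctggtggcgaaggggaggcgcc
FDPS (chr1:155308676-155308865, plus strand): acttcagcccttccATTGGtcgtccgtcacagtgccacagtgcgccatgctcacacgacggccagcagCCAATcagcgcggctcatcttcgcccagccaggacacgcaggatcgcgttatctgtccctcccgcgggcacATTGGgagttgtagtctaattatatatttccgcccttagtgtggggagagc
PMVK (chr1:154936720-154936919, minus strand): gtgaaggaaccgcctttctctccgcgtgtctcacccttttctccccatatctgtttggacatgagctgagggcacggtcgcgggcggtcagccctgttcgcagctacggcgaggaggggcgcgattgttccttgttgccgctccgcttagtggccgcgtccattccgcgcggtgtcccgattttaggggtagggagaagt

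CCAAT occurred in 15 of the 23 matched promoters (65.2%), against 35.6% of the 8147 matched promoters of tested genes and 32.0% of all 35116. Of the 17 matched genes that were lower in Plasmax than in EMEM, 12 held it, and IDI1, GPAM, MLXIPL, SREBF1 and SCAP did not. Of the other 6 genes 3 held it, ACLY, NSDHL and STARD4. The stretches printed above therefore do not show that the box went with the changes. The GC box GGGCGG, bound by SP1, was in 21 of 23 (91.3%), against 68.8% of the tested genes' promoters. TCACNCCAC was found in SREBF2 alone, at bases -133 to -125, against 0.921% of the tested genes' promoters. The shorter core CACCCCAC, which overlaps it, also occurred in SREBF2 alone (2.17% of the tested genes' promoters). The E-box CACGTG occurred in 2 of 23 (8.70%), against 9.23%. These are exact matches of letters in a short window and say nothing of binding.

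Total counts ran from 1562125 to 2384090 per library, and a single count corresponded to 0.419 to 0.640 CPM, the unit of counts scaled to the library total. Levels are CPM, means are given ± SD over 3 libraries, and log2 fold changes ± SE come from edgeR's quasi-likelihood test, with p-values adjusted by the method of Benjamini and Hochberg over all genes tested. Genes with an adjusted p under 0.05 passed. On principal component 2, replicate 1 of Plasmax-TE and replicate 2 of Plasmax-TE+Fe stood apart from the other 10 libraries (-35.5 and -32.0 against -8.11 to 19.6). The numbers of genes that passed are also given without both. All 10 hepatocyte markers examined were present, including ALB at 3846 CPM or more in every library. Their summed level ran from 29940 to 34675 CPM in EMEM, 9073 to 10755 in Plasmax, 20538 to 23888 in Plasmax-TE and 13613 to 16587 in Plasmax-TE+Fe, an order of media that 10 of the 28 genes shared, and the part of this shift in the results was not tested. Of 8 markers of other cell types, COL1A1 and CD14 stayed under 10 CPM, LYZ ran from 779 to 2496 CPM with its highest levels in EMEM, and the others were not analysed here. Fewer cells of a type and less RNA per cell cannot be told apart in such bulk samples.

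Among the 4 media 18 of the 28 genes differed (64.3%, against 18.0% of all genes tested). These were 13 of 17 enzymes of cholesterol synthesis, SREBF2 of 4 regulators and carriers, and 4 of 7 genes of fatty acid and triglyceride synthesis. EMEM had the highest mean for 22 of the 28 genes, and in 19 of those 22 Plasmax-TE came second. Plasmax and Plasmax-TE+Fe took the last places in either order. PMVK, TM7SF2 and NSDHL were highest in Plasmax-TE, LBR and ELOVL6 in Plasmax-TE+Fe, and ACLY in Plasmax.

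**Figure D1:**
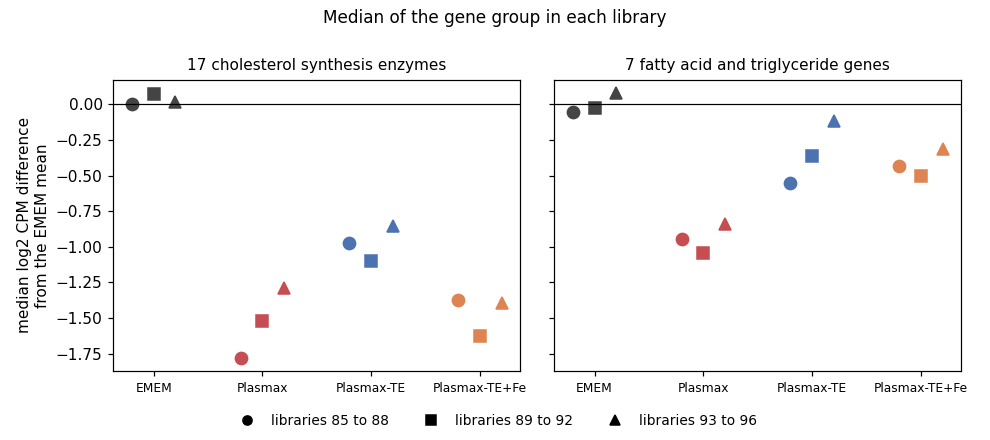
Median difference in log2 CPM from the EMEM mean over 17 enzymes of cholesterol synthesis (left) and 7 genes of fatty acid and triglyceride synthesis (right), 1 point per library, with point shape for the run of library numbers. The enzymes lay between -1.78 and -1.29 in Plasmax, between -1.10 and -0.85 in Plasmax-TE and between -1.63 and -1.37 in Plasmax-TE+Fe.

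The mevalonate steps build isoprenoid units from acetyl-CoA, and 6 of the 7 genes differed among the media. HMGCS1, which condenses acetoacetyl-CoA with acetyl-CoA, stood at 160, 167 and 143 CPM in EMEM, 55.7, 51.2 and 67.8 CPM in Plasmax, 82.2, 61.9 and 85.3 CPM in Plasmax-TE and 58.4, 50.3 and 41.7 CPM in Plasmax-TE+Fe. Every EMEM library was above all libraries of the other media, while the Plasmax-based media overlapped except that Plasmax-TE+Fe lay wholly below Plasmax-TE. ACAT2, which makes the acetoacetyl-CoA, had 236, 244 and 237 CPM in EMEM and 51.2, 40.2 and 87.98 CPM in Plasmax. It had 67.3, 92.4 and 128 CPM in Plasmax-TE and 56.3, 49.2 and 55.1 CPM in Plasmax-TE+Fe. The last medium again lay below the libraries of Plasmax-TE, without overlap. IDI1, which isomerises the isoprenoid unit, read 48.6, 50.3 and 40.9 CPM in EMEM, 12.2, 16.7 and 9.88 CPM in Plasmax, 24.5, 23.3 and 21.5 CPM in Plasmax-TE and 18.1, 17.8 and 13.4 CPM in Plasmax-TE+Fe. For IDI1 the Plasmax-TE libraries lay between those of EMEM and the other media with no overlap on either side.

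FDPS, farnesyl diphosphate synthase, averaged 160 ± 11.9 CPM in EMEM, 51.2 ± 10.8 in Plasmax, 73.3 ± 16.8 in Plasmax-TE and 55.1 ± 9.78 in Plasmax-TE+Fe. MVD, the decarboxylase, went from 39.8 ± 0.579 CPM in EMEM to 9.53 ± 2.71 in Plasmax, with 14.9 ± 2.67 in Plasmax-TE and 13.6 ± 2.79 in Plasmax-TE+Fe. MVK, mevalonate kinase, had 38.9 ± 5.61, 15.3 ± 6.25, 25.9 ± 5.38 and 14.3 ± 2.52 CPM in the same order. The exception was PMVK, the second kinase, which stayed between 9.25 and 18.8 CPM in all 12 libraries. It did not differ among the media (adjusted p = 0.26, edgeR's quasi-likelihood test). Its Plasmax-TE+Fe libraries (9.25, 12.4 and 9.93 CPM) still lay below those of Plasmax-TE (16.5, 18.8 and 14.1 CPM). Such a fall without overlap was seen for 6.52% of all genes.

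From squalene to cholesterol 7 of 10 genes differed among the media. SQLE, squalene epoxidase, a rate-controlling step, had 171, 187 and 168 CPM in EMEM and 29.4, 27.7 and 49.8 CPM in Plasmax. It had 70.2, 65.5 and 85.3 CPM in Plasmax-TE and 30.7, 61.6 and 39.7 CPM in Plasmax-TE+Fe, so that Plasmax-TE was clear of every other medium. MSMO1, the sterol C4-methyl oxidase, had 128, 126 and 130 CPM in EMEM, 34.6, 39.7 and 39.1 CPM in Plasmax, 58.8, 47.6 and 66.5 CPM in Plasmax-TE and 37.8, 42.7 and 31.3 CPM in Plasmax-TE+Fe. It had the lowest p of the 28 genes among the media (adjusted p = 1.8e-07, edgeR's quasi-likelihood test). DHCR7, the last reductase of one branch, averaged 86.8 ± 11.5, 22.6 ± 1.25, 33.1 ± 8.51 and 23.6 ± 5.36 CPM in EMEM, Plasmax, Plasmax-TE and Plasmax-TE+Fe.

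FDFT1, squalene synthase, averaged 257 ± 7.46 CPM in EMEM, 90.03 ± 17.9 in Plasmax, 128 ± 19.7 in Plasmax-TE and 97.7 ± 5.73 in Plasmax-TE+Fe. EBP, a sterol isomerase, averaged 121 ± 12.6, 51.3 ± 15.9, 82.5 ± 12.2 and 61.0 ± 12.3 CPM in that order. SC5D, the sterol C5-desaturase, fell from 43.4 ± 4.21 CPM in EMEM to 18.4 to 22.0 CPM on average in the other media, which overlapped one another.

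TM7SF2 and LBR both encode sterol C14-reductases, and their levels went separate ways. TM7SF2 had 42.4, 43.2 and 58.7 CPM in EMEM, 18.6, 29.3 and 34.6 CPM in Plasmax, 63.3, 53.8 and 40.8 CPM in Plasmax-TE and 23.1, 38.4 and 23.8 CPM in Plasmax-TE+Fe. The EMEM and Plasmax-TE libraries overlapped, and both were above all libraries of the other media. LBR, which is also a receptor of the nuclear lamina, stayed between 69.1 and 113 CPM in all libraries and did not differ among the media (adjusted p = 0.32). NSDHL, which acts with MSMO1 in removing methyl groups, ranged from 15.7 to 39.8 CPM with wide overlap (adjusted p = 0.25). It had 34.3, 39.8 and 17.3 CPM in EMEM and 16.6, 15.7 and 25.6 CPM in Plasmax. HSD17B7, the partner reductase, had few counts, with means of 7.24 CPM in EMEM and 2.60 CPM in Plasmax (adjusted p = 0.072 among the media).

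**Figure D2:**
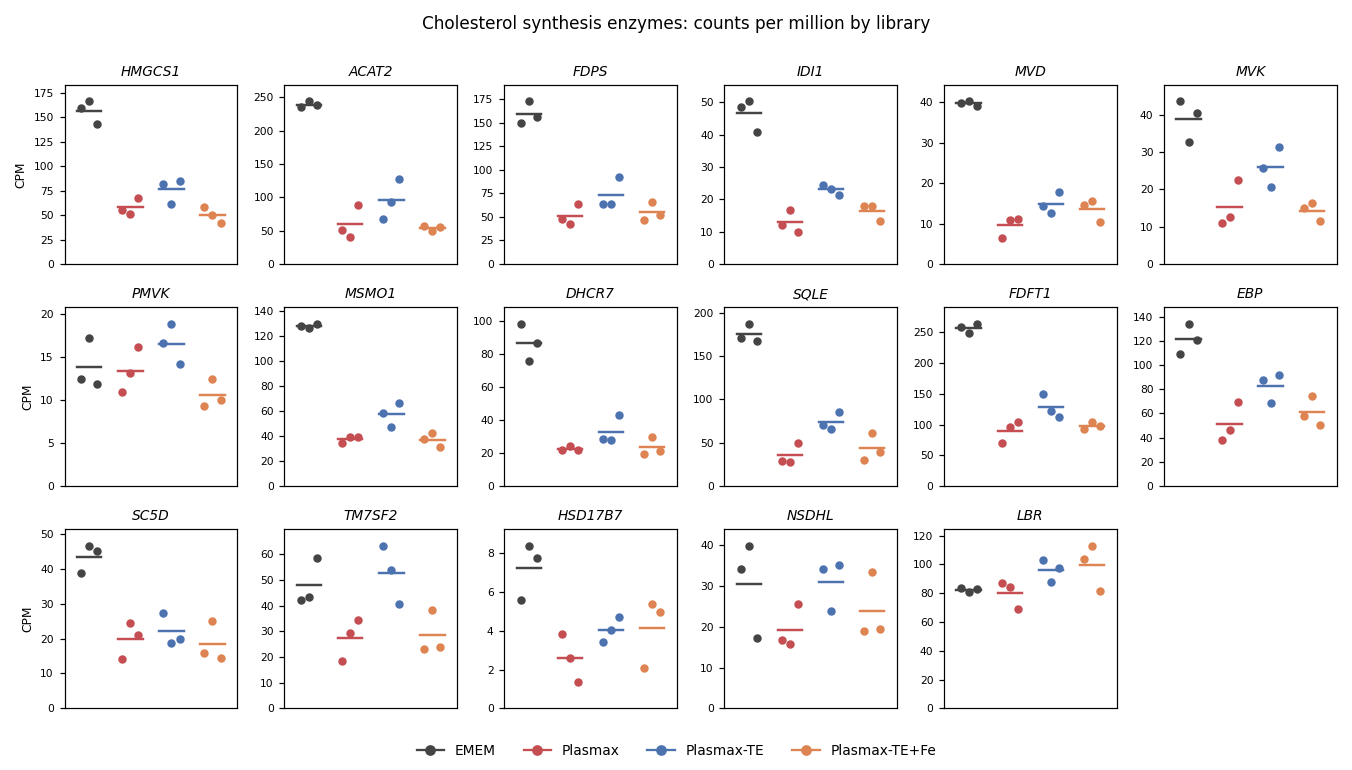
Level of 17 enzymes of cholesterol synthesis in CPM (linear axes from 0), 1 point per library and a bar at the mean of 3 libraries of a medium. For SQLE the EMEM libraries sit between 168 and 187 CPM and the Plasmax libraries between 27.7 and 49.8 CPM. PMVK and LBR overlap between EMEM and Plasmax.

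Among the regulators, SREBF2, the cholesterol-directed SREBP, had 81.0, 57.0 and 74.2 CPM in EMEM and 35.8, 38.1 and 39.9 CPM in Plasmax. It had 46.8, 38.6 and 47.1 CPM in Plasmax-TE and 31.5, 26.0 and 31.8 CPM in Plasmax-TE+Fe, the medium in which it was lowest, below every library of the other 3 media. SREBF1 averaged 24.0 ± 4.21 CPM in EMEM, 14.8 ± 4.02 in Plasmax, 15.4 ± 2.50 in Plasmax-TE and 19.7 ± 1.56 in Plasmax-TE+Fe (adjusted p = 0.075 among the media). SCAP averaged 195 ± 15.1, 144 ± 13.0, 190 ± 53.5 and 173 ± 18.5 CPM in that order (adjusted p = 0.15), and its highest library was Plasmax-TE replicate 1, one of the 2 that stood apart. STARD4, a cytosolic sterol carrier, had between 1.35 and 10.3 CPM, in some libraries only 3 counts, and did not pass (adjusted p = 0.12).

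Fatty acid synthesis did not follow as a block. ACLY, which makes cytosolic acetyl-CoA from citrate, averaged 143 ± 13.2 CPM in EMEM, 146 ± 1.13 in Plasmax, 128 ± 8.30 in Plasmax-TE and 127 ± 15.0 in Plasmax-TE+Fe. FASN, fatty acid synthase, averaged 431 ± 32.0, 374 ± 53.9, 346 ± 49.2 and 371 ± 36.3 CPM. ELOVL6, which lengthens the C16 product, averaged between 22.3 and 30.7 CPM in the 4 media. Adjusted p among the media was 0.50 for ACLY, 0.36 for FASN and 0.48 for ELOVL6. A difference of these 3 core enzymes among the media was not detectable here.

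ACSS2, which makes acetyl-CoA from acetate, did differ, with 22.4, 31.5 and 34.1 CPM in EMEM, 13.4, 11.5 and 12.1 CPM in Plasmax, 15.4, 16.2 and 13.1 CPM in Plasmax-TE and 12.2, 14.1 and 11.9 CPM in Plasmax-TE+Fe. EMEM stood clear of the rest. GPAM, which begins triglyceride assembly, had 244, 138 and 247 CPM in EMEM, 104, 105 and 102 CPM in Plasmax, 237, 166 and 184 CPM in Plasmax-TE and 169, 189 and 146 CPM in Plasmax-TE+Fe. Here Plasmax lay below all other libraries, and the other 3 media overlapped. MLXIPL, ChREBP, averaged 497 ± 93.1, 295 ± 75.2, 398 ± 56.0 and 266 ± 10.6 CPM in EMEM, Plasmax, Plasmax-TE and Plasmax-TE+Fe. PNPLA3, a lipid droplet protein and SREBF1 target, had 15.0, 25.2 and 12.3 CPM in EMEM, 3.20, 2.09 and 6.28 CPM in Plasmax, 11.98, 10.8 and 8.37 CPM in Plasmax-TE and 0.420, 5.95 and 2.48 CPM in Plasmax-TE+Fe. Its lowest library held 1 count, so the size of its changes is uncertain.

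**Figure D3:**
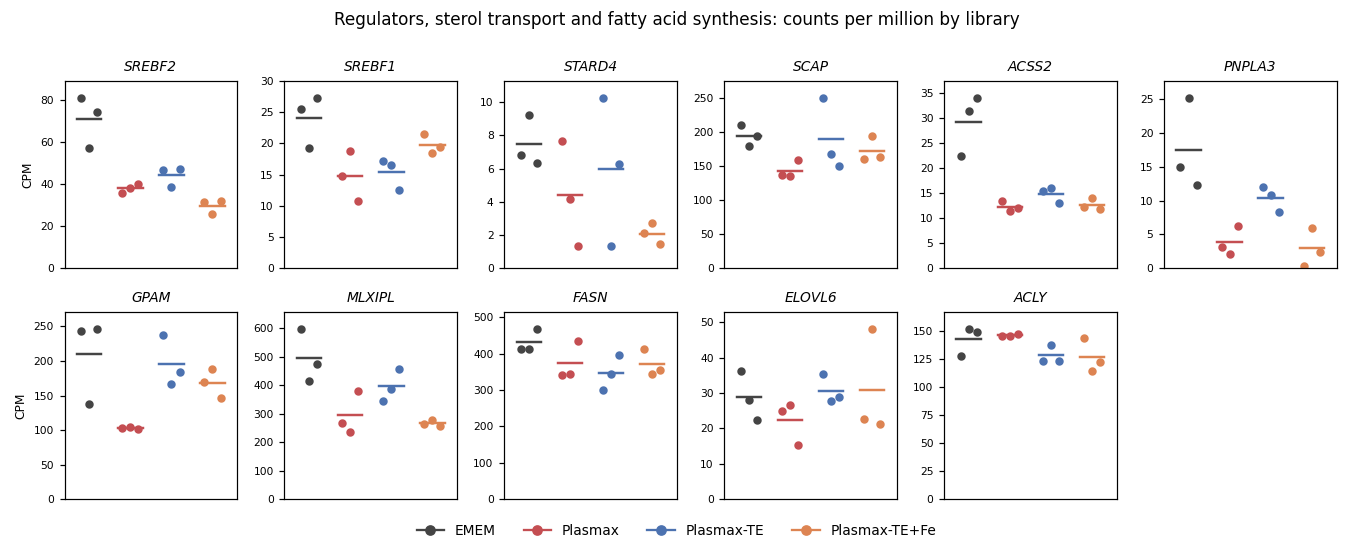
Level in CPM (linear axes from 0) of 4 regulators and carriers and 7 genes of fatty acid and triglyceride synthesis, 1 point per library and a bar at the mean of the 3 libraries of a medium. ACLY and FASN overlap between EMEM and Plasmax, whereas GPAM sits between 102 and 105 CPM in Plasmax and at 138 CPM or more elsewhere.

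Plasmax against EMEM asks what a plasma-like medium changed. Of the 28 genes 21 fell, none rose and 7 did not pass. Of all genes tested 21.4% were called, 9.90% as higher and 11.5% as lower. All 21 were lower in every Plasmax library than in any EMEM library, as were 18.2% of all genes. The median log2 fold change was -1.22 over the 28 genes, -1.55 over the 17 enzymes of cholesterol synthesis, -0.79 over the 7 fatty acid and triglyceride genes and -0.01 over all genes tested. The largest falls of cholesterol enzymes were those of SQLE (-2.32 ± 0.23), MVD (-2.07 ± 0.25), ACAT2 (-2.02 ± 0.25) and DHCR7 (-1.98 ± 0.21). SREBF2 fell by 0.94 ± 0.18, SREBF1 by 0.76 ± 0.24 and SCAP by 0.49 ± 0.17. PNPLA3 fell by 2.17 ± 0.47, ACSS2 by 1.31 ± 0.23, GPAM by 1.07 ± 0.19 and MLXIPL by 0.79 ± 0.19. In edgeR's quasi-likelihood test the adjusted p was 1.0e-06 for SQLE, 0.0010 for SREBF2, 0.029 for SREBF1, 0.042 for SCAP and 0.0023 for PNPLA3.

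The values of the genes that did not pass on the log2 scale were -0.09 ± 0.26 for PMVK, -0.10 ± 0.15 for LBR, -0.68 ± 0.30 for NSDHL and -0.91 ± 0.54 for STARD4. They were -0.02 ± 0.15 for ACLY, -0.25 ± 0.17 for FASN and -0.43 ± 0.28 for ELOVL6. The 95% interval was -0.33 to 0.29 for ACLY and -0.60 to 0.09 for FASN, while that of MSMO1 was -2.16 to -1.46. Within the 3 runs of consecutive library numbers, each with 1 library of every medium, 23 of the 28 genes went 1 way in all runs (56.5% of all genes did). SCAP no longer passed without EMEM replicate 1, 2 or 3, Plasmax replicate 1 or 2, Plasmax-TE+Fe replicate 1 or 3 or Plasmax-TE replicate 2, nor did SREBF1 without EMEM replicate 1 or 3 or Plasmax replicate 1 or 3. SCAP was also lost with library size as the only scaling (adjusted p = 0.0759), and SREBF1 by DESeq2 (adjusted p = 0.0547). HSD17B7 was lost without EMEM replicate 2 or 3 or Plasmax replicate 2 or 3. TM7SF2 was lost without EMEM replicate 3 or Plasmax replicate 1 or 2, and MLXIPL without Plasmax replicate 2. NSDHL passed as lower in edgeR's quasi-likelihood test without EMEM replicate 3 (-0.96, adjusted p = 0.0303) or Plasmax replicate 3 (-0.99, adjusted p = 0.0495).

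Plasmax-TE against Plasmax asks what the lack of trace elements changed. It shares the Plasmax libraries with the comparison against EMEM, so the results of both are not independent. Of the 28 genes 6 rose, none fell and 22 did not pass. Of all genes tested 11.2% were called, 5.61% as higher and 5.63% as lower. The genes that rose were SQLE (1.03 ± 0.24), GPAM (0.92 ± 0.20), TM7SF2 (0.91 ± 0.24), IDI1 (0.85 ± 0.23), EBP (0.66 ± 0.21) and MSMO1 (0.61 ± 0.18), of which 5 are enzymes of cholesterol synthesis. Adjusted p-values by edgeR's quasi-likelihood test were 0.0049 for GPAM, 0.0094 for SQLE, 0.019 for TM7SF2, 0.022 for IDI1, 0.030 for MSMO1 and 0.046 for EBP. All 17 cholesterol enzymes had a positive log2 fold change, with a median of 0.61, against 0.02 over all genes tested, and 11 of the 28 genes lay above Plasmax without overlap of libraries (15.0% of all genes did).

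FDFT1 was just outside the threshold (0.50 ± 0.16, adjusted p = 0.0503), and PNPLA3 had the largest difference (1.36 ± 0.50, adjusted p = 0.084). FDFT1 passed by DESeq2 (adjusted p = 0.0439) and limma-voom (0.0453). With a term for the run of library numbers 9 genes rose, the 6 above and FDFT1, ACAT2 and MVK (adjusted p = 0.0258, 0.0218 and 0.0323). PNPLA3 passed without Plasmax replicate 3 or Plasmax-TE+Fe replicate 2 and with the 6 libraries compared alone (adjusted p = 0.0486). FASN (-0.10 ± 0.17) and ACLY (-0.18 ± 0.15) were the genes with negative values, and the ACLY libraries lay below those of Plasmax without overlap (15.4% of all genes did). SREBF1 (0.08 ± 0.25) and SREBF2 (0.21 ± 0.19) did not pass. Within the 3 runs 22 of the 28 genes went 1 way in all runs (48.3% of all genes did). The number that rose was 2 without Plasmax replicate 1 or Plasmax replicate 2, 11 without Plasmax replicate 3 and 3 without Plasmax-TE replicate 1. Without both libraries that stood apart it was 7, of which 5 were among the 6, with EBP lost (adjusted p = 0.0530) and FDPS (0.0462) and ACAT2 (0.0160) gained. EBP and MSMO1 were also lost with the 6 libraries compared alone. EBP was lost without any 1 of 9 libraries (all but Plasmax replicate 3 and replicate 2 of Plasmax-TE and of Plasmax-TE+Fe), MSMO1 without Plasmax replicate 1 or 2 or Plasmax-TE replicate 1 or 3, and IDI1 without Plasmax replicate 1 or 3 or Plasmax-TE replicate 1 or 2. TM7SF2 was lost without replicate 1 or 2 of either medium, and SQLE without Plasmax replicate 2.

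Plasmax-TE+Fe against Plasmax-TE asks what supplying iron changed. It shares the Plasmax-TE libraries with the comparison against Plasmax, so opposite changes in both are not independent observations. By edgeR's quasi-likelihood test no adjusted p of the 28 genes was under 0.05, nor by DESeq2 (26 genes with a value) or by limma-voom, and 0.258% of all genes tested had. At an unadjusted p under 0.05, 16 of the 28 genes were lower with iron and none was higher, against 5.13% of all genes lower and 4.18% higher at that level. The median log2 fold change was -0.44 over the 28 genes and -0.49 over the cholesterol enzymes, against 0.00 over all genes tested. Every one of the 7 mevalonate genes had a negative value, from -0.86 ± 0.28 (MVK) to -0.13 ± 0.26 (MVD). Without overlap of libraries, 12 of the 28 genes were lower with iron (6.52% of all genes were), and SREBF1 alone was higher (0.36 ± 0.24, with 6.91% of all genes higher).

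In edgeR's quasi-likelihood test the lowest adjusted p-values were 0.13 for TM7SF2 (-0.90 ± 0.24) and 0.15 for MSMO1 (-0.63 ± 0.17) and PNPLA3 (-1.89 ± 0.53). SQLE stood at -0.77 ± 0.23, ACAT2 at -0.85 ± 0.26, SREBF2 at -0.56 ± 0.19 and MLXIPL at -0.59 ± 0.19. LBR (0.04 ± 0.15), FASN (0.09 ± 0.17) and ACLY (-0.02 ± 0.15) were near 0, with 95% intervals of -0.27 to 0.35, -0.26 to 0.43 and -0.33 to 0.29. With a term for the run of library numbers, TM7SF2, MSMO1 and ACAT2 passed (adjusted p = 0.0496, 0.0494 and 0.042), and 19 of the 28 genes went 1 way in all 3 runs (40.0% of all genes did). Without both libraries that stood apart, SQLE (-1.11 ± 0.24, adjusted p = 0.035) and PNPLA3 (-2.76 ± 0.65, adjusted p = 0.048) passed instead. Without Plasmax-TE+Fe replicate 2 alone SQLE, TM7SF2 and PNPLA3 passed (adjusted p = 0.0204, 0.0191 and 0.0168), where 229 of all 10701 genes tested did.

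**Figure D4:**
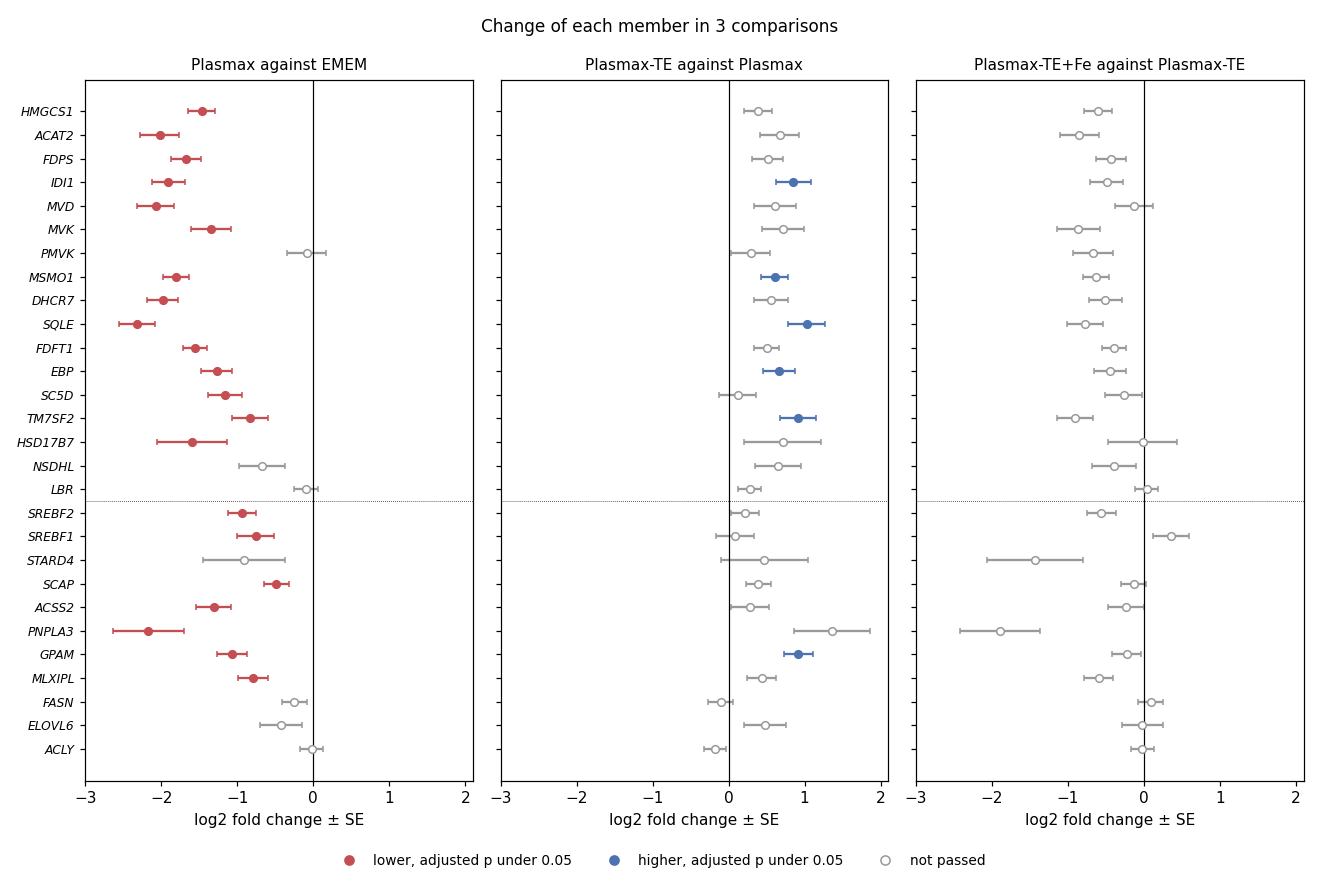
Log2 fold change ± SE of each of the 28 genes in Plasmax against EMEM, Plasmax-TE against Plasmax and Plasmax-TE+Fe against Plasmax-TE, with filled points for an adjusted p under 0.05 and cholesterol enzymes above the dotted line. In the first comparison 21 genes are lower, in the second 6 are higher, and in the third no gene passed although most points lie below 0.

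Plasmax-TE+Fe against Plasmax left no gene past the threshold in edgeR's quasi-likelihood test (1.20% of all genes tested passed), nor by DESeq2 or limma-voom. At an unadjusted p under 0.05, only GPAM differed (13.6% of all genes did). The median log2 fold change was 0.05 over the 28 genes, and the 95% intervals were -0.40 to 0.35 for MSMO1, -0.26 to 0.77 for SQLE and -0.61 to 0.17 for HMGCS1. GPAM had the largest value relative to its error (0.70 ± 0.20, adjusted p = 0.0955) and passed with a term for the run of library numbers (adjusted p = 0.014). Against EMEM, which shares its libraries with the comparison of Plasmax, 12 genes were lower in Plasmax-TE and none higher, where 3.19% of all genes tested were lower and 1.62% higher. In Plasmax-TE+Fe 17 were lower and none higher, where 5.98% of all genes were lower and 3.67% higher. SREBF2 was lost in the former without EMEM replicate 1 or 3 or Plasmax-TE replicate 2, ACSS2 without EMEM replicate 3 and SC5D without Plasmax-TE replicate 2. In Plasmax-TE 7 of the 17 cholesterol enzymes did not pass against EMEM. These were TM7SF2 (0.07 ± 0.23), EBP (-0.61 ± 0.20), MVK (-0.63 ± 0.25), PMVK, LBR, NSDHL and HSD17B7. GPAM (-0.15 ± 0.19), MLXIPL (-0.36 ± 0.19) and PNPLA3 (-0.81 ± 0.40) did not pass either. EBP passed there with a term for the run of library numbers (-0.62 ± 0.18, adjusted p = 0.0315), with the 6 libraries compared alone and without Plasmax replicate 3. In Plasmax-TE+Fe the values were -0.83 ± 0.24 for TM7SF2, -1.05 ± 0.20 for EBP, -1.49 ± 0.27 for MVK, -0.37 ± 0.19 for GPAM, -0.95 ± 0.19 for MLXIPL and -2.70 ± 0.49 for PNPLA3, of which all but that of GPAM passed. TM7SF2 was lost there without EMEM replicate 3 or Plasmax-TE+Fe replicate 1 or 3, and with library size as the only scaling (adjusted p = 0.0552). GPAM passed there in edgeR's quasi-likelihood test without EMEM replicate 2 (adjusted p = 0.0309). HSD17B7, SREBF1 and SCAP, which were lower in Plasmax, did not pass in Plasmax-TE+Fe against EMEM. SREBF1 and SCAP did not pass in Plasmax-TE against EMEM either. Of the 4 regulators and carriers, SREBF2 alone passed in each of these comparisons.

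Other genes of the pathway were read from 4 lists. Of 14 genes of SREBP processing and turnover, 4 rose and 1 fell in Plasmax against EMEM, where 9.90% of all genes tested rose and 11.5% fell. SPRING1, which supports the protease that cleaves SREBPs, rose from 42.2 to 114 CPM (1.39 ± 0.16) and was lower again in Plasmax-TE (65.5 CPM, -0.80 ± 0.16 against Plasmax). RNF145, a sterol-linked ubiquitin ligase, rose from 32.5 to 65.1 CPM (0.94 ± 0.18) and was also lower in Plasmax-TE (-0.59 ± 0.18). INSIG2, which retains SCAP, fell from 111 to 49.6 CPM (-1.24 ± 0.20). SPRING1 and RNF145 thus ran opposite to the cholesterol enzymes in these comparisons, although the RNF145 call in Plasmax-TE was lost without either Plasmax replicate 1, 2 or 3, without Plasmax-TE replicate 1 or 2, or without both libraries that stood apart.

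In sterol uptake, export and storage 6 of 15 genes fell in Plasmax against EMEM and none rose (all genes, 11.5% and 9.90%). TMEM97, a sterol-responsive regulator of the cholesterol transporter NPC1, fell from 172 to 70.8 CPM (-1.33 ± 0.16) and rose to 119 CPM in Plasmax-TE (0.74 ± 0.17 against Plasmax). SOAT2, which esterifies cholesterol, fell from 69.5 to 24.1 CPM (-1.57 ± 0.21), and had 21.9 CPM in Plasmax-TE and 12.6 CPM in Plasmax-TE+Fe. NPC2, which moves cholesterol out of lysosomes, fell by 0.71 ± 0.14. None of 10 genes of the other mevalonate branches (ubiquinone, dolichol and prenylation) passed in any of the 6 comparisons by edgeR's quasi-likelihood test. DHDDS, a subunit of the dolichol-making enzyme, had the lowest p among the media there (adjusted p = 0.090), with 11.05 CPM in EMEM and 16.5 to 20.9 CPM in the other media. Of 17 genes of citrate, NADPH and acyl-CoA supply and triglyceride assembly, 4 rose and 4 fell in Plasmax (all genes, 9.90% and 11.5%). ACSL5, an acyl-CoA synthetase, rose from 102 to 263 CPM (1.32 ± 0.17), IDH1, a cytosolic source of NADPH, fell by 0.77 ± 0.14 and LPIN2, a phosphatidate phosphatase, by 1.14 ± 0.22.

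Across the 12 libraries the log2 CPM of 10 genes was most like the mean standardised level of the cholesterol enzymes (Pearson r from 0.96 to 0.98, a description over libraries that share media and processing). Among them were TMEM97, PIK3CD, QPRT, KLB, CYP4F12, RAB11FIP4, GALM and PGM1. YBX3, RAP1GAP2, ITGA1, TGM2 and GART were most opposite (r from -0.97 to -0.95). Set against the mean of the other cholesterol enzymes, SQLE (0.98), EBP and MSMO1 (both 0.97) were closest and LBR (-0.05) farthest. Outside those enzymes ACSS2 (0.88), MLXIPL, PNPLA3 (both 0.86) and SREBF2 (0.83) were closer than SREBF1 (0.47), FASN (0.49) or ACLY (0.17).

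Some of the genes share their 3′ end with a neighbour in GENCODE 29, and the sources used here do not say whether counting used the strand. ACAT2 ends inside TCP1 and SREBF1 inside RAI1, both on the opposite strand. PNPLA3 ends inside a model of SAMM50 on the same strand, where counting by strand would not separate the pair. In Plasmax against EMEM TCP1 stood at 0.26 ± 0.17, SAMM50 at -0.50 ± 0.19 and RAI1 at 0.21 ± 0.27, of which none passed, so the levels of ACAT2, PNPLA3 and SREBF1 carry this uncertainty. FDPS, HMGCS1 and IDI1 end inside antisense genes that were not analysed here.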

How the data were processed

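RNA of HepG2 cells was sequenced from transcript 3′ ends (QuantSeq, per the labels' protocols). FastQC 0.72, cutadapt 1.16, STAR 2.7.5b, featureCounts 1.6.3, limma 3.40.6 and build hg19 are named in the submitters' processing notes. Sources used here do not give the annotation. The deposited values are raw counts per gene. Of 10994 entries 54 repeated another and were dropped, leaving 10940 genes, and genes with low counts were absent (at least 4.04 CPM in the third-highest library).

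In R 4.3.3 with edgeR 4.0.16, filterByExpr (minimum count 10, minimum total 15) kept 10459 genes, TMM factors ran from 0.964 to 1.06, and 1 quasi-likelihood model of the 4 media (8 residual degrees of freedom) gave all tests, two-sided. SE was taken as log2 fold change over root F, without sign, and 95% intervals use the model's total degrees of freedom. An exact permutation test of 3 against 3 libraries cannot go below p = 0.1. CPM use total counts, and log2 CPM a prior count of 2. Alternatives used DESeq2 1.42.0 and limma 3.58.1. The tests were tried on simulated counts first. The genes, the lists and the rule for named genes were chosen with earlier results of these data known. That rule accounts for every gene of the list present, names up to 3 genes of lowest p per further list, and takes 10 genes of most like and 5 of most opposite pattern. Some genes are not reported here. Promoters are RefSeq's (GRCh38.p14), another build than that of the counts.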

Additional observations from a re-analysis of the deposited data

How the results depend on the processing

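All 7 counts were recomputed under 8 other scalings, filters, tools or blocks, without both libraries that stood apart, without each library in turn and, except for the 4 media together, with the 6 libraries compared alone. Leaving out 1 library at a time, the number of genes called ranged from 17 to 21 for Plasmax against EMEM, 2 to 11 for Plasmax-TE against Plasmax, 0 to 3 for Plasmax-TE+Fe against Plasmax-TE, 0 to 1 for Plasmax-TE+Fe against Plasmax, 10 to 13 for Plasmax-TE against EMEM, 16 to 18 for Plasmax-TE+Fe against EMEM and 18 to 19 for the 4 media together. With a block for runs of library numbers 3 genes passed in Plasmax-TE+Fe against Plasmax-TE, and without both libraries that stood apart 2, and 1 passed in Plasmax-TE+Fe against Plasmax with that block. The cause of these changes was not tested. The other settings moved no count by over 1.5 times. Without both libraries that stood apart, 20 genes differed among the 4 media and 21 passed in Plasmax against EMEM. With both left out, 12 passed in Plasmax-TE against EMEM, 18 in Plasmax-TE+Fe against EMEM and 0 in Plasmax-TE+Fe against Plasmax. Over all genes, the 27 calls in Plasmax-TE+Fe against Plasmax-TE became 152 with that block, 99 without both libraries, 81 by DESeq2, 229 without Plasmax-TE+Fe replicate 2, 47 and 17 without Plasmax replicate 3 and 2, and 0 without Plasmax-TE replicate 2 or 3, without Plasmax-TE+Fe replicate 1 or 3 and with the 6 libraries alone. The 126 in Plasmax-TE+Fe against Plasmax became 372 with the block, 31 without Plasmax replicate 2, 71 and 82 without Plasmax-TE+Fe replicate 1 and 2, and 77 with the 6 libraries alone. The 1176 in Plasmax-TE against Plasmax became 1859 with the block, 780 and 477 without Plasmax replicate 1 and 2, and 744 without Plasmax-TE replicate 1. The 503 in Plasmax-TE against EMEM became 829 with the block, 259 to 293 without 1 EMEM library and 294 without Plasmax-TE replicate 2. The 1009 in Plasmax-TE+Fe against EMEM became 1569 with the block, 606 to 666 without 1 EMEM library and 651 without Plasmax-TE+Fe replicate 3. The 1879 among the 4 media became 2835 with the block.

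Libraries of different media with the same replicate number had correlations of deviations from -0.43 to 0.17 over 18 pairs. Among EMEM, Plasmax and Plasmax-TE these numbers matched the runs of library numbers, and all such pairs were positive (0.04 to 0.17). Every negative value came from a pair with Plasmax-TE+Fe, whose replicates 1, 2 and 3 lay in runs 3, 1 and 2. With the replicate block the counts were 20, 6, 0, 0, 12 and 18 in the order of the comparisons above, and 18 for the 4 media. SCAP was then lost in Plasmax against EMEM and STARD4 gained in Plasmax-TE+Fe against EMEM. Libraries of 1 run of numbers, which include the matched pairs of those 3 media, had correlations from 0.03 to 0.53. Among the 28 genes in 6 comparisons no called value changed sign. STARD4, HSD17B7 and PNPLA3 fell to a few counts in some libraries, where only large changes can be detected.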
